A study of Mus musculus with 6 samples.

Results

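The clustered protocadherins alpha, beta and gamma were examined in mouse neural stem cells (NSCs) that were wild type (WT) or heterozygous for a Setd5 mutation. The group held every gene of the deposited table named Pcdha, Pcdhb or Pcdhg followed by the letter and number of a cluster member. This gave 58 genes out of 53110 in the table, with 14 in the alpha, 22 in the beta and 22 in the gamma cluster. The group was selected on measured values, because earlier results of the same genotype contrast were known when it was proposed. The contrast is therefore given here as a description, with no test.

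Clustered protocadherins are cell surface proteins of the cadherin superfamily that bind copies of themselves on neighbouring cells. They are best known from neurons, where the combination of members on a cell marks its branches and lets the cell tell self from non-self. Each alpha and gamma gene has a large variable exon with a promoter of its own, which is spliced to constant exons at the end of its cluster that all members share. Beta genes are made of a single large exon and have no constant exons. Promoters are chosen with the help of the DNA-binding factor CTCF and cohesin, and DNA methylation and the chromatin protein SMCHD1 are known to keep promoters of the clusters silent.

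RNA-seq was performed on primary cortical NSCs grown as adherent cultures in medium with EGF and bFGF at 21% oxygen. The WT group and the Setd5+/- group each had 3 samples, and both genotypes received the same medium and oxygen. The mutation was made with CRISPR-Cas9, and the Setd5+/- columns of the table carry the name of a single clone, A3. Reads counted on genes came to between 9995980 and 10004948 in WT samples and between 7143309 and 7146147 in Setd5+/- samples.

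The 3 samples of a genotype differed by no more than the sampling noise of read pairs. Per degree of freedom, the chi-square of read pairs was between 0.958 and 0.981 within genotypes and between 31.7 and 31.9 between them. Of the values above 0, 59.0% were even numbers of reads, so counting in pairs is approximate. The column names also give the same index and lane to the 3 samples of a genotype. They were therefore counted as 1 sample, n = 1 per genotype, and no difference between genotypes below has a replicate check. The genotype cannot be told apart from the clone, library, index or lane. Every interval below is a 95% interval for counting error only.

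Setd5 itself went from 2676 to 2065 normalized counts, a log2 fold change of -0.37 (-0.44 to -0.31). The neural stem cell markers were all present, with a median log2 fold change of -0.13 over 9 genes, from -1.65 for Fabp7 to 0.60 for Vim. None of 8 mesenchymal markers reached a mean of 10 normalized counts. Markers of other neural cells also differed between the libraries. Syt1, a synaptic vesicle protein, was at -3.42 while the neuronal list ran up to 0.32 for Map2, and the astrocyte list ran from -1.93 for Slc1a2 to 3.87 for Gfap. Sox10, a factor of the oligodendrocyte lineage, went from 298 to 1.59 normalized counts, while Cspg4 was 0.91 higher on the log2 scale. Of the microglial markers, Csf1r alone reached the minimum, at -0.86. The part of cell composition in the protocadherin values was not tested, and fewer cells of a type and less RNA per cell cannot be told apart in bulk RNA.

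All members lie on the forward strand of chromosome 18 (GRCm38, also called mm10). The alpha cluster runs from 36930184 to 37187661, the beta cluster from 37264938 to 37524479 and the gamma cluster from 37661793 to 37841873. In 57 of the 58 members the mean over the genotypes reached 10 normalized counts, the minimum used here, and Pcdhb1 was the exception. By the deposited counts, 10 members were at least 2-fold higher and 2 at least 2-fold lower in Setd5+/- NSCs. Over all 16266 genes that passed the minimum, 10.3% were at least 2-fold higher and 6.14% at least 2-fold lower. These counts hide the pattern of the alpha and gamma clusters, because most of the reads counted for their members were the same reads.

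Several alpha members had exactly the same number of reads in every sample. Pcdha1, Pcdha6 and Pcdha7 each had 212, 228 and 214 reads in WT samples and 249, 289 and 279 in Setd5+/- samples, and no alpha member had fewer in any sample. In the gamma cluster the lowest count was that of Pcdhga10, with 12126, 11817 and 12017 reads in WT and 8218, 8078 and 8160 in Setd5+/- samples. Between 5 and 6 gamma members sat exactly on this count in each Setd5+/- sample. In the annotation the shared stretch is 3 exons in each cluster, of 59, 89 and 2712 bases for alpha (37156155 to 37156213, 37159265 to 37159353 and 37184946 to 37187657) and of 59, 89 and 1968 bases for gamma (37825021 to 37825079, 37833265 to 37833353 and 37839903 to 37841870). The lowest count of a cluster in a sample was taken as its reads on shared exons, and what a member had beyond it as reads on its own exons. A member's own reads are thus an estimate that is too low by any own reads of the lowest member. Shared reads made up between 93.7% and 95.8% of all reads listed for alpha members, and between 95.3% and 96.7% for gamma members. The split was chosen after the values were seen.

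**Figure D1:**
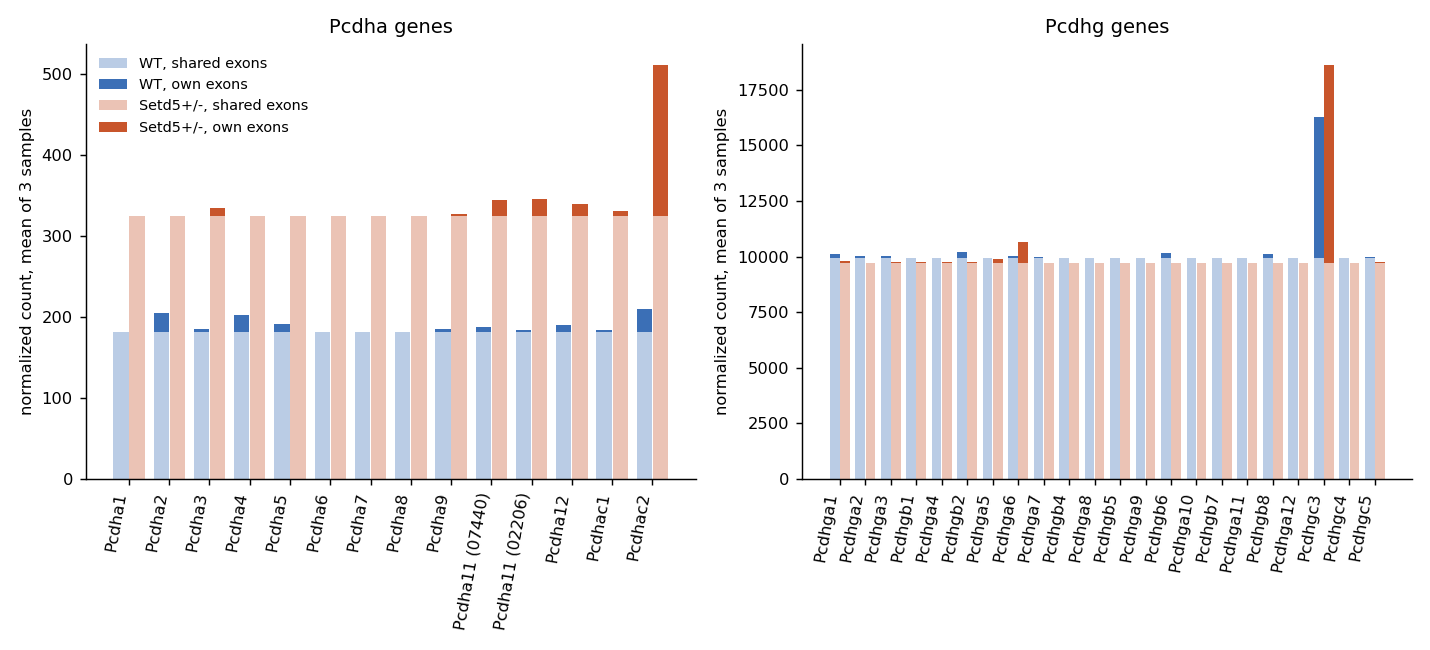
Bars give the mean normalized count (y axis, linear) of each alpha member (left) and gamma member (right), in chromosomal order, for WT (blue) and Setd5+/- NSCs (orange). Pale parts are reads on shared exons and dark parts reads on the member's own exons, and the 2 genes named Pcdha11 are told apart by the end of their Ensembl identifier. The pale part makes up nearly all of most bars, at 181 in WT and 324 in Setd5+/- for alpha and at 9928 and 9712 for gamma, and Pcdhgc3 stands above the other gamma members in both genotypes.

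The beta cluster was split by position. All 10 genes from Pcdhb2 to Pcdhb11 were higher in Setd5+/- NSCs, by a median log2 fold change of 1.49 and a range of 0.90 to 2.38. In each of these 10 genes the 3 Setd5+/- values lay above the 3 WT values. As the samples of a genotype were counted as 1, this shows only a difference beyond counting error. How many of all genes had values apart in this way was not counted. Of the 8 genes that follow, Pcdhb12 to Pcdhb19, 7 were lower and 1 was higher, with a median of -0.21 and a range of -2.80 to 0.20. Pcdhb20, Pcdhb21 and Pcdhb22 at the far end were at 0.31, 0.96 and -0.04. The bounds of these runs were drawn after the values were seen.

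Summed over the genes, the cluster went from 2914 normalized counts in WT to 5241 in Setd5+/- NSCs, a ratio of 1.80. The sum of Pcdhb2 to Pcdhb11 went from 1304 to 3777, a ratio of 2.90 (log2 1.53, interval 1.46 to 1.60). The sum of Pcdhb12 to Pcdhb19 went from 1085 to 812, a ratio of 0.749 (log2 -0.42, interval -0.53 to -0.31). This sum holds Pcdhb14, which went from 122 to 16.7, and Pcdhb18, which went from 189 to 75.8. Pcdhb17 was at -0.39, and the intervals of Pcdhb12, Pcdhb13, Pcdhb15, Pcdhb16 and Pcdhb19 reached 0. Of the 21 beta genes past the minimum, 9 were at least 2-fold higher and 2 at least 2-fold lower, against the 10.3% and 6.14% of all genes. The median of the beta genes was 0.90, and that of all genes was -0.02.

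**Figure D2:**
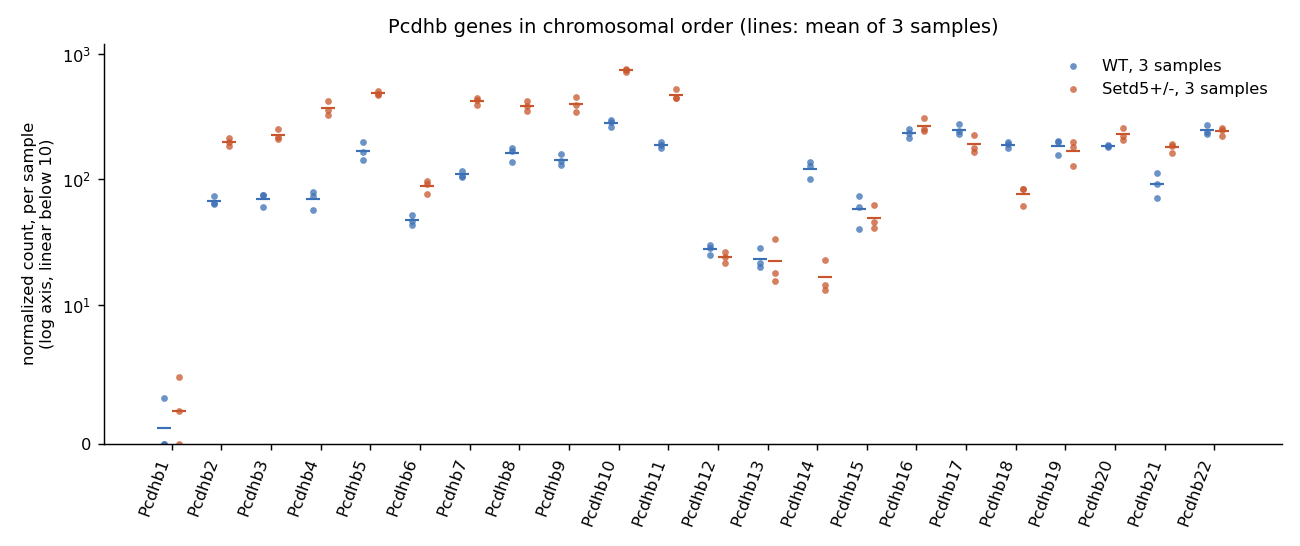
Points give the normalized count (y axis, logarithmic above 10) of each beta gene in each of the 6 samples, in chromosomal order, and lines the mean of the 3 samples of a genotype. The Setd5+/- points lie above the WT points from Pcdhb2 to Pcdhb11, while Pcdhb14 and Pcdhb18 have their Setd5+/- points below, with means of 16.7 against 122 and 75.8 against 189.

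Pcdhb4 had the highest fold change of the beta genes. It lies from 37307455 to 37311172, and its normalized counts were 57.2, 79.4 and 72.9 in WT samples and 355, 325 and 421 in Setd5+/- samples. The groups did not overlap, and the log2 fold change was 2.38 (2.10 to 2.65). Pcdhb7 (37341702 to 37345202) had 117, 105 and 106 in WT and 389, 447 and 426 in Setd5+/- samples, a change of 1.93 (1.70 to 2.16). Pcdhb3 (37300799 to 37304585) had 59.7, 74.5 and 75.4 in WT and 254, 211 and 217 in Setd5+/- samples, a change of 1.69 (1.39 to 1.98). In these 3 genes every Setd5+/- value was above every WT value, which with n = 1 per genotype shows only a difference beyond counting error.

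Pcdhb10 was the beta gene with the highest counts in both genotypes. It lies from 37411664 to 37414514 and had 286, 260 and 296 normalized counts in WT and 713, 763 and 737 in Setd5+/- samples, a log2 fold change of 1.39 (1.24 to 1.54). Per kilobase of exon it was also the highest beta gene, at 98.5 normalized counts in WT against 259 in Setd5+/- NSCs. The median beta gene, leaving out Pcdhb1, had 31.2 and 51.1 per kilobase. Pcdhb5 (37320381 to 37323915) had 198, 142 and 164 in WT and 478, 504 and 468 in Setd5+/- samples, a change of 1.52 (1.32 to 1.71). Pcdhb11 (37421418 to 37425836), the last gene of the higher run, had 187, 199 and 178 in WT and 448, 526 and 448 in Setd5+/- samples, a change of 1.33 (1.14 to 1.52). The other genes of this run, Pcdhb2, Pcdhb8 and Pcdhb9, were at 1.55, 1.24 and 1.47. Pcdhb6 (37333921 to 37337674) was the member just short of 2-fold, with 46.4, 43.0 and 51.3 in WT and 91.8, 97.7 and 76.2 in Setd5+/- samples, a change of 0.90 (0.51 to 1.296).

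Pcdhb14 had the lowest fold change. It lies from 37447656 to 37456350, and its normalized counts were 128, 100.1 and 137 in WT samples and 13.1, 22.6 and 14.3 in Setd5+/- samples. The change was -2.80 (-3.40 to -2.19), or 7.30 times lower. Its direct neighbours on either side did not share this difference beyond counting error. Pcdhb13 had 19.9, 28.1 and 21.5 in WT and 15.5, 33.3 and 17.9 in Setd5+/- samples, so that the groups overlapped. Pcdhb15 likewise overlapped, with 59.7, 39.7 and 72.9 against 40.5, 45.3 and 61.9.

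Pcdhb18 (37489465 to 37494505) was the other gene past 2-fold in this direction. It had 198, 179 and 190 normalized counts in WT and 83.4, 83.4 and 60.8 in Setd5+/- samples, a change of -1.30 (-1.62 to -0.99). Pcdhb17 (37484795 to 37489454), directly before it, had 240, 228 and 277 in WT and 164, 225 and 179 in Setd5+/- samples, a change of -0.39 (-0.61 to -0.17). The groups did not overlap in either gene. The intervals of Pcdhb12, Pcdhb13, Pcdhb15, Pcdhb16, Pcdhb19 and Pcdhb22 reached 0.

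Pcdhb1 stands first in the beta cluster (37264938 to 37267525) and was nearly silent. It had 4 reads over the 3 WT samples and 6 over the 3 Setd5+/- samples. The ratio of Setd5+/- to WT was 2.16, with an exact interval from 0.247 to 25.8. Pcdhb21 and Pcdhb22 overlap by 455 bases in the annotation, so that part of their reads may be the same. The share of stretches of 100 bases in a beta transcript that also occur in another clustered protocadherin had a median of 0.207% and a maximum of 7.73%. For stretches of 50 bases the median was 4.26% and the maximum 11.99%. The read length is not given in the sources used here. Outside the constant exons, the share for 100 bases had a median of 5.18% and a maximum of 12.6% in alpha members, and of 0.0971% and 36.0% in gamma members. For 50 bases the medians were 13.4% in alpha and 0.893% in gamma members.

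**Figure D3:**
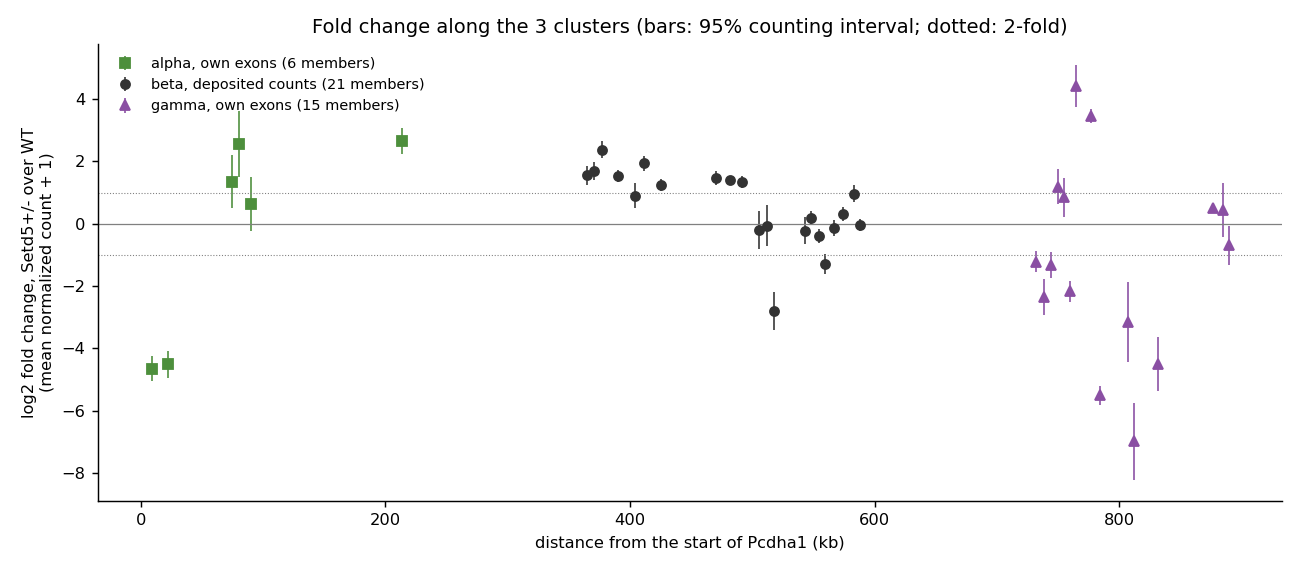
The log2 fold change of Setd5+/- over WT (y axis) is plotted against the distance of each gene's start from that of Pcdha1 (x axis, kb), with 95% counting intervals, for the 42 members averaging at least 10 normalized counts. Alpha and gamma points use own-exon reads and beta points the deposited counts. The beta genes from Pcdhb2 to Pcdhb11 lie above 0, of those after them only Pcdhb20 and Pcdhb21 have intervals wholly above 0, and the gamma points range from -6.98 to 4.42.

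In the alpha cluster the shared exons were higher in Setd5+/- NSCs. Of the 6 alpha members averaging at least 10 own normalized counts, 3 were at least 2-fold higher, Pcdhac2 and the 2 genes named Pcdha11. Another 2, Pcdha2 and Pcdha4, were at least 2-fold lower, with no own reads left in Setd5+/- NSCs. Over all genes tested, 10.3% were at least 2-fold higher and 6.14% at least 2-fold lower by the deposited counts. Pcdha5, below the minimum, also had no own reads left. The shared exons had 176, 189 and 177 normalized counts in WT samples and 297, 344 and 332 in Setd5+/- samples. The groups did not overlap, and the ratio was 1.80 (log2 0.85, interval 0.64 to 1.05). All 14 alpha members were higher by the deposited counts, with a median of 0.84 and a range of 0.66 to 1.28. These 14 values are no independent observations, since they repeat the shared reads.

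Pcdhac2 encodes a C-type isoform, one of the members at the end of a cluster that differ in sequence from the rest. It starts at 37143503 and has the variable exon closest to the constant exons. Its own-exon normalized counts were 29.9, 30.6 and 26.5 in WT samples and 195, 196 and 168 in Setd5+/- samples, and the groups did not overlap. The log2 fold change of own reads was 2.65 (2.23 to 3.06), against 1.28 (1.103 to 1.46) by the deposited counts. Pcdhac2 held 25.0% of the own-exon counts of the alpha cluster in WT and 71.3% in Setd5+/- NSCs. Pcdhac1 (start 37090013), the other C-type alpha gene, had 11 own reads in WT and 16 in Setd5+/- NSCs, a ratio of 2.09 with an exact interval from 0.584 to 6.71.

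Pcdha2, Pcdha4 and Pcdha5 were seen in WT NSCs only. Pcdha2 (start 36939205) had 11.6, 35.6 and 24.8 own normalized counts in WT samples and 0 in each Setd5+/- sample. By the lower end of the exact interval, which holds the counting error of both genotypes, it was at least 7.95-fold lower. Pcdha4 (start 36952648) had 18.2, 21.5 and 25.7 in WT and 0 in Setd5+/- samples, at least 7.20-fold lower by the same measure. Pcdha5 (start 36960440) had 12.4, 13.2 and 4.14 in WT and 0 in Setd5+/- samples, at least 3.06-fold lower, but its mean over the genotypes was below the minimum. By the deposited counts these 3 genes were 0.66, 0.68 and 0.77 higher on the log2 scale.

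The 2 genes that the table names Pcdha11 were higher in Setd5+/- NSCs. The one with identifier ENSMUSG00000102206 (start 37010712) had 1.66, 3.31 and 3.31 own normalized counts in WT and 22.6, 23.8 and 16.7 in Setd5+/- samples, a change of 2.55 (1.503 to 3.60). The one with identifier ENSMUSG00000007440 (start 37005203) had 4.98, 6.62 and 9.94 in WT and 9.53, 34.5 and 15.5 in Setd5+/- samples, which overlap, a change of 1.35 (0.49 to 2.21). RefSeq places Pcdha10 near the start of this gene, so its counts may belong to Pcdha10. Pcdha3, Pcdha9 and Pcdha12 had own reads in both genotypes and intervals that reached 0, and Pcdha1, Pcdha6, Pcdha7 and Pcdha8 had at most 2 own reads in either genotype. Own reads of the alpha cluster were few, 420 in WT and 659 in Setd5+/- NSCs. Without Pcdhac1 and Pcdhac2 their sum went from 83.9 to 68.7 normalized counts, a log2 ratio of -0.29 whose interval (-0.66 to 0.09) reached 0.

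The gamma cluster was by far the most abundant, and its shared exons differed little between the genotypes. They had 10055, 9776 and 9952 normalized counts in WT samples and 9795, 9620 and 9720 in Setd5+/- samples, so that the groups overlapped. The log2 ratio was -0.03 (-0.06 to 0.00). Per kilobase of shared exon this was 4692 normalized counts in WT against 4590 in Setd5+/- NSCs, against 63.1 and 113 for the alpha cluster. By the deposited counts no gamma member was 2-fold higher or lower, and the range was -0.06 to 0.19. The own reads beneath these flat values differed strongly, outside Pcdhgc3, in which members they came from.

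Pcdhgc3, a C-type gamma member, held most of the own reads in both genotypes. It starts at 37806364, and its own normalized counts were 6246, 6221 and 6585 in WT samples and 8698, 9071 and 8995 in Setd5+/- samples. The groups did not overlap, and the change was 0.49 (0.45 to 0.53) by own reads and 0.19 (0.17 to 0.22) by the deposited counts. It held 82.9% of the gamma own counts in WT and 86.1% in Setd5+/- NSCs. Per kilobase, its own exons stood at 40.0% of the shared exons in WT and at 57.5% in Setd5+/- NSCs. BC037039, an antisense gene over the first part of the Pcdhgc3 exon, was listed with 3523 and 5219 normalized counts. Whether strand was used in counting is not given in the sources used here, so reads of these genes cannot be told apart.

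Outside Pcdhgc3, the summed own counts of the gamma cluster went from 1311 in WT to 1441 in Setd5+/- NSCs, a ratio of 1.099. Of the 15 gamma members averaging at least 10 own normalized counts, 3 were at least 2-fold higher and 8 at least 2-fold lower in Setd5+/- NSCs, where 10.3% and 6.14% of all genes tested passed these limits by the deposited counts. Pcdhga6 (start 37707039) had 84.6, 80.2 and 86.1 own normalized counts in WT and 955, 971 and 861 in Setd5+/- samples. The change was 3.46 (3.22 to 3.70), against 0.09 by the deposited counts. Its share of the own counts outside Pcdhgc3 was 6.38% in WT and 64.4% in Setd5+/- NSCs. Pcdhga5 (start 37694380), its neighbour, had 6.63, 9.93 and 6.63 in WT and 182, 199 and 175 in Setd5+/- samples, a change of 4.42 (3.73 to 5.10). Pcdhgb1 was the third member past 2-fold higher, at 1.19 (0.63 to 1.75).

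Other gamma members had fewer own counts in Setd5+/- NSCs than in WT. Outside Pcdhgc3, Pcdhgb2 (start 37689828) had the most in WT, with 305, 254 and 242 own normalized counts there and 60.8, 47.6 and 67.9 in Setd5+/- samples, a change of -2.16 (-2.51 to -1.82). Pcdhgb6 (start 37742094) had 249.6, 211 and 217 in WT and 0, 2.38 and 0 in Setd5+/- samples. The WT level was 284 times that of Setd5+/- NSCs, with an exact interval from 50.8 to 11258, since a single read pair was left. Pcdhgb8 (start 37761801), annotated as a polymorphic pseudogene, had 171, 174 and 156 in WT and 7.15, 4.76 and 7.15 in Setd5+/- samples, a change of -4.51 (-5.38 to -3.65).

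Pcdhga1 (start 37661793) went from 166 to 71.1 own normalized counts, Pcdhga2 from 97.2 to 18.3 and Pcdhga3 from 105 to 41.7. In these 3 genes at the start of the cluster the samples of the genotypes did not overlap. Pcdhga7 (start 37714764), the next gamma A gene after Pcdhga6, had 48.1, 46.3 and 38.1 in WT and 0 in every Setd5+/- sample. It was at least 14.7-fold lower by the lower end of the exact interval. Pcdhga9 had 80 own reads in WT and 4 in Setd5+/- NSCs, a ratio of 13.9 in favour of WT with an exact interval from 3.61 to 119. Pcdhgb5 had 63 and 2, a ratio of 21.9 with an interval from 3.72 to 906, but its mean over the genotypes was below the minimum. Pcdhgb7, also below the minimum, was at -1.24 (-2.39 to -0.09). Pcdhga4 was higher, at 0.85 (0.22 to 1.48), and the interval of Pcdhga12 reached 0. Pcdhga8, Pcdhga10, Pcdhga11 and Pcdhgb4 had at most 13 own reads in either genotype. Parts of the exons of Pcdhgb1 and Pcdhga4, and of Pcdhgb4 and Pcdhga8, overlap each other in the annotation.

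The C-type genes Pcdhgc4 and Pcdhgc5 were low in both genotypes. Pcdhgc4 (start 37815079) had 9.95, 6.62 and 12.4 own normalized counts in WT and 11.9, 14.3 and 14.3 in Setd5+/- samples, and the groups overlapped. Pcdhgc5 (start 37819513) had 48.1, 32.3 and 25.7 in WT and 21.5, 23.8 and 19.1 in Setd5+/- samples, a change of -0.70 (-1.31 to -0.08). Of the 5 C-type genes, Pcdhac2 and Pcdhgc3 were thus higher beyond counting error in Setd5+/- NSCs, Pcdhgc5 was lower, and the intervals of Pcdhac1 and Pcdhgc4 reached 0.

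**Figure D4:**
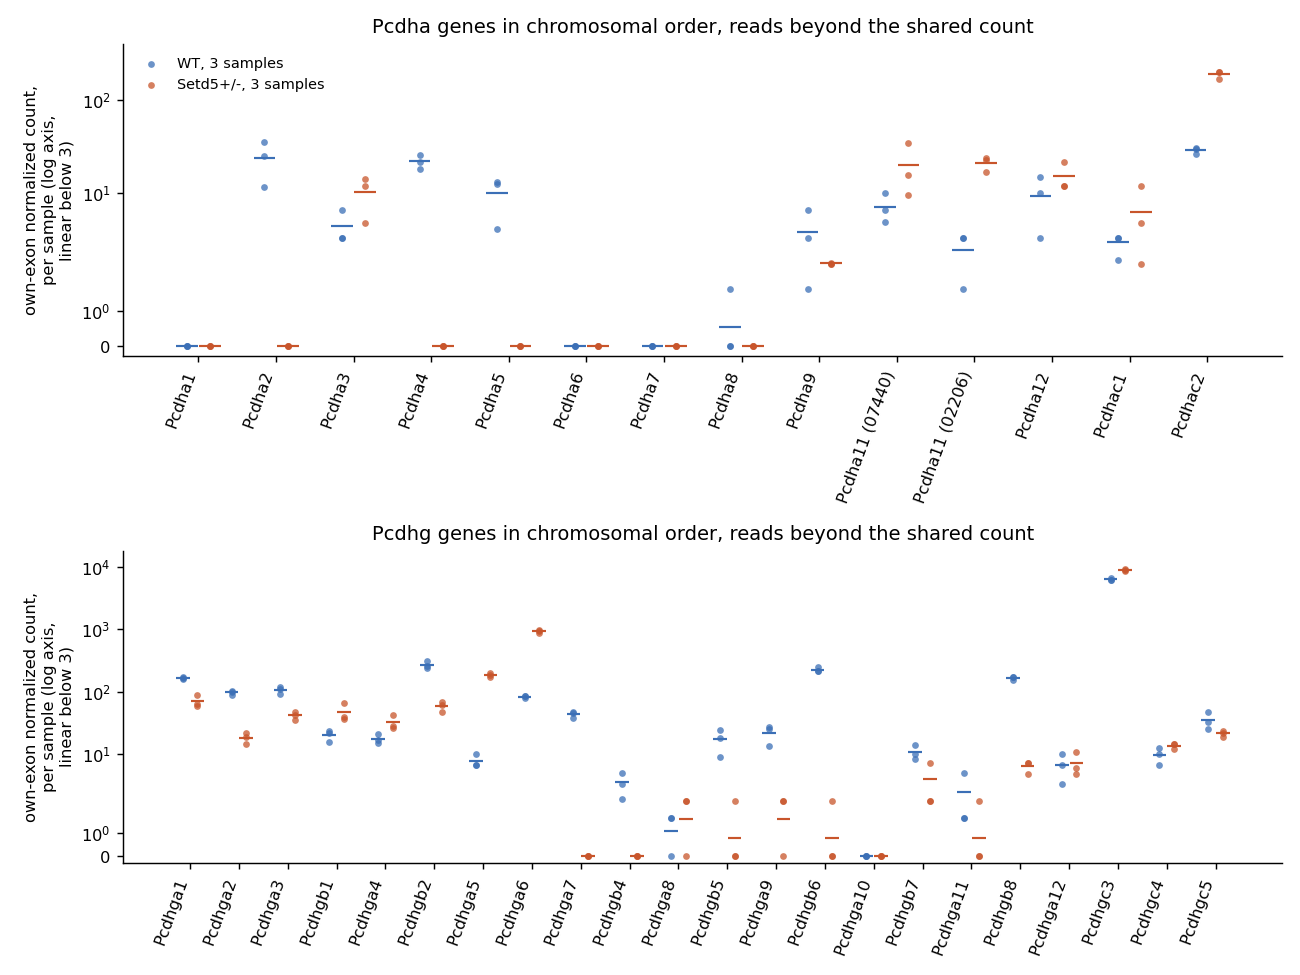
Points give the own-exon normalized count (y axis, logarithmic above 3) of each alpha member (top) and gamma member (bottom) in each of the 6 samples, in chromosomal order, and lines the mean of the 3 samples of a genotype. Pcdha2, Pcdha4, Pcdha5 and Pcdhga7 have Setd5+/- points at 0, while Pcdhga5, Pcdhga6 and Pcdhac2 have theirs far above WT, with means of 185 against 7.73, 929 against 83.7 and 187 against 29.0.

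In the alpha cluster, and in the gamma cluster outside Pcdhgc3, own reads were more concentrated on a few members in Setd5+/- NSCs than in WT. The number of members that would give the same concentration if used equally, the inverse of the summed squared shares, was 6.16 in WT and 1.90 in Setd5+/- NSCs for alpha own reads. It was 8.17 and 2.28 for gamma own reads outside Pcdhgc3, and 16.1 and 13.7 for the beta genes. The 3 leading members held 64.5% of alpha own reads in WT and 86.9% in Setd5+/- NSCs, and 50.3% and 82.2% of gamma own reads outside Pcdhgc3. For the beta genes the 3 leading members held 26.7% and 32.3%.

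The share of reads that would have to be moved to other members to make the composition of 2 samples equal was larger between genotypes than between samples of a genotype. For the beta genes it was 27.6% between genotypes, and between 4.81% and 6.77% in pairs of samples within a genotype. For gamma own reads outside Pcdhgc3 it was 73.2%, against 3.54% to 7.63% within a genotype. For alpha own reads it was 53.5%, against 5.74% to 23.1% within a genotype, where reads were fewest.

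Genes around the clusters showed no common direction. The 20 nearest genes before the alpha cluster that passed the minimum had a median log2 fold change of -0.11, with 1 at least 2-fold higher and none lower. The 20 nearest after the gamma cluster had a median of -0.08, with 2 higher and 2 lower by 2-fold. The other 368 tested genes of chromosome 18 had a median of -0.03. Taf7, which encodes a subunit of the general transcription factor TFIID and lies on the reverse strand between the beta and gamma clusters (37640491 to 37644204), was named after its values were seen. It went from 130 to 34.5 normalized counts, a change of -1.89 (-2.33 to -1.44).

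Cadherins and protocadherins outside the clusters were mixed. Of 12 non-clustered protocadherins 10 passed the minimum, with a median of 0.33 and 1 gene past 2-fold in each direction. Pcdh8 went from 4.42 to 47.7 normalized counts, a change of 3.17 (2.29 to 4.04), and Pcdh9 from 415 to 121, a change of -1.77 (-2.02 to -1.53). Of 27 other cadherins 17 passed, with a median of 0.65, 5 at least 2-fold higher and 3 at least 2-fold lower. Celsr1, a planar polarity cadherin, went from 242 to 1092 (2.17, interval 2.02 to 2.32), and Cdh11 from 269 to 33.8 (-2.96, interval -3.39 to -2.53).

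None of 26 genes known to act on the clusters, all of which passed the minimum, was 2-fold higher or lower, and their median was -0.11. Ctcf went from 1151 to 865 normalized counts, a change of -0.41 (-0.52 to -0.31). Rad21 and Smc1a, which encode cohesin subunits, were higher, at 0.44 (0.38 to 0.50) and 0.52 (0.45 to 0.60). The other cohesin subunits on the list did not share this size of difference, with Smc3 at -0.15 (-0.26 to -0.04), Stag1 at -0.09 (-0.22 to 0.04) and Stag2 at 0.11 (0.02 to 0.19). Dnmt1, the maintenance DNA methyltransferase, had the lowest value of the list, going from 1485 to 858, a change of -0.79 (-0.89 to -0.69). The intervals of Smchd1 (0.02, interval -0.10 to 0.14, and -0.02 when scaled by total reads) and Dnmt3b (0.39, interval -0.12 to 0.90) reached 0.

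Of 22 genes for partners of the clustered protocadherins or for their cleavage, 21 passed the minimum, with a median of 0.04. Ncstn and Psen2, which encode parts of the gamma-secretase that cleaves protocadherins in the membrane, were the 2 genes past 2-fold, both higher. Ncstn went from 1051 to 2576 normalized counts, a change of 1.29 (1.21 to 1.37), and Psen2 was at 1.24. Wasf1, a subunit of the WAVE complex of actin regulators, was the lowest, at -0.59 (-0.72 to -0.46).

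**Figure D5:**
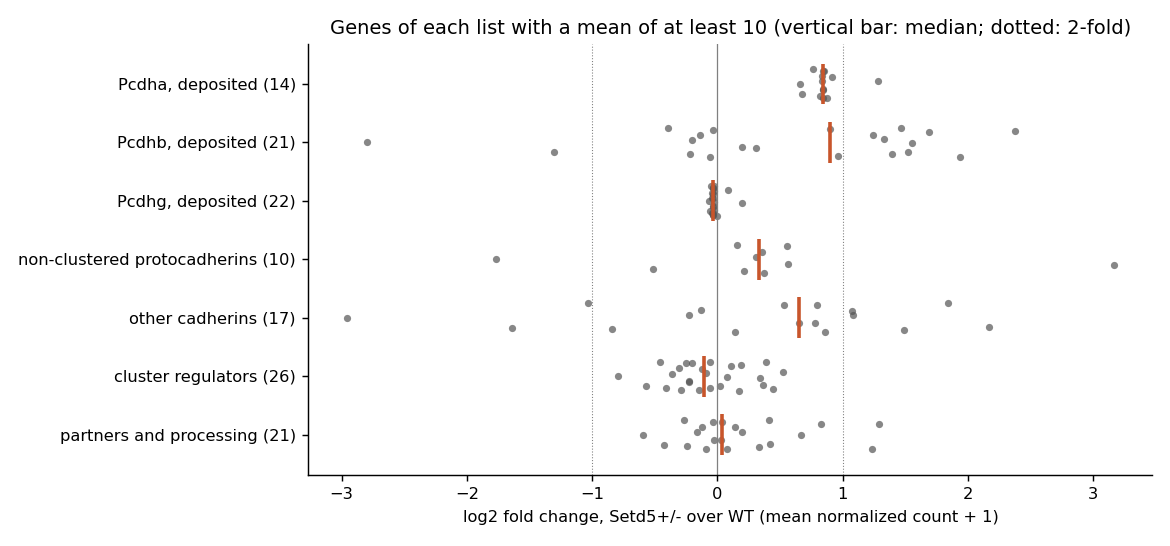
Each point is the log2 fold change of 1 gene (x axis, Setd5+/- over WT) averaging at least 10 normalized counts, by list (y axis, number of genes in brackets), with the median as an orange bar. The alpha and gamma genes form tight groups around 0.84 and -0.03, because their deposited counts share reads, while the beta genes spread from -2.80 to 2.38 and the cluster regulators stay between -0.79 and 0.52.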

How the data were processed

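The authors trimmed paired reads with Trimmomatic, aligned them with Bowtie2 to mm10 and ran DESeq2. Versions, the counting tool and its use of strand are not given in the sources used here. They deposited 1 table of normalized counts, the reads per gene divided by a size factor per sample, with lost decimal points. Its fold change and p-value columns were not used. Bowtie2 does not split reads over introns, so junction reads of alpha and gamma transcripts may be missing.

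Each value is a whole number of reads times a fixed amount per sample (0.827 to 0.829 in WT, 1.19 in Setd5+/-), and the point was placed where this held to 10 decimals. In 39544 genes that was enough, and in 12894 the mean column was also used. In 37 genes the smallest of several solutions was taken, and 672 genes without values were dropped. The restoration was tested on values with known answers.

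Fold changes are log2 of the ratio of mean normalized counts plus 1, and 16266 genes had a mean of 10 or more. Intervals use a variance of 1.94 times the mean of reads, estimated between the samples of a genotype, and for few reads are exact (Clopper-Pearson) on read pairs. No test was run. Own reads are a member's reads minus the lowest count in its cluster in that sample. Positions and exons are from GENCODE for GRCm38.

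Members and lists were chosen with earlier results of these data known. Members named with all values are, per cluster, the 3 with the highest counts and the 3 highest and lowest fold changes by the deposited counts, the C-type genes and Pcdhb1, and others were named for their own reads after these were seen. In other lists the highest and lowest are named, with Ctcf, Rad21, Smchd1 and Dnmt3b, and Psen2 after its value was seen. Alternatives were other scalings, samples left out, pseudocounts, minimum counts and fold limits. Python 3.11.15 with pandas 2.3.3, numpy 2.4.6, scipy 1.17.1 and matplotlib 3.10.9 was used.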

Additional observations from a re-analysis of the deposited data

How the results depend on the processing

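Limits on these values are that n is 1 per genotype, that own reads of the alpha cluster were few, and that low genes understate their change. When 1 of the 6 samples was left out, the count of members at least 2-fold higher was between 10 and 11 and that of members at least 2-fold lower was 2, and the log2 ratio of the beta sum was between 0.81 and 0.87. The ratio of Pcdhb2 to Pcdhb11 was then between 1.502 and 1.55, and that of Pcdhb12 to Pcdhb19 between -0.52 and -0.34. Of the values over groups of genes, 188 stayed within a set tolerance under an alternative and 16 moved by more. Of the values for single genes and other lists, 621 stayed within it and 26 moved by more. The tolerance was a factor of 1.5 for numbers of members and shares of genes, and the counting interval for sums and single genes. For medians it was the standard deviation over pairings of 1 sample per genotype. Leaving out 1 sample could hardly move a value, since the samples of a genotype differed by no more than the sampling noise of read pairs. A minimum count cannot move a sum or the fold change of a single gene. These counts are therefore no measure of how stable the values are. None of the values changed sign after being past 2-fold. With own-exon reads, chosen after seeing the data, 42 members passed the minimum in place of 57. Of these, 12 were at least 2-fold lower in place of 2 and 15 higher in place of 10. By the deposited counts 6.14% of all genes tested were lower and 10.3% higher. The median log2 fold change with own-exon reads was 0.37 over all members, 0.99 for alpha and -1.22 for gamma. These differences come from taking away the shared reads. Scaling by total reads gave a gamma median of -0.072, a gamma sum of -0.052, gamma shared exons of -0.071 and gamma own exons of 0.40, since it moves all values alike by -0.04 on the log2 scale. A minimum mean of 50 gave a median over all members of 0.19, with fewer genes tested. At a limit of 1.5-fold, 25 members were higher and Pcdhb14 and Pcdhb18 lower, with 19.7% of all genes higher and 15.5% lower. The 25 include all 14 alpha members, which repeat the same shared reads and are no independent observations. At 4-fold 1 member was higher and 1 lower, with 2.96% of all genes higher and 1.86% lower. No paired analysis was possible because the 3 samples of a genotype were counted as 1 and no result comes from a test.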

Other observations

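Annotated genes that join an exon of the alpha cluster to the constant exons of the gamma cluster were listed beside the members. Gm42416, which uses an exon at Pcdha4, went from 2164 to 2358 normalized counts, a log2 fold change of 0.12 (0.06 to 0.19). Gm37013 and Gm37388 had the same reads in every sample, 534, 547 and 598 in WT samples and 407, 474 and 456 in Setd5+/- samples, although their alpha exons, at Pcdha6 and Pcdha7, differ. Gm38182, made of exons around the gamma constant exons, had a change of 0.08 (0.02 to 0.13). Gm10544, on the reverse strand within the alpha constant region, went from 24.0 to 79.8 normalized counts, a change of 1.69 (1.202 to 2.18).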
